A study of Mus musculus with 441 samples.

Results

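The genes described here are 9 adhesion molecules of T cells: the integrin alpha chains Itgae (CD103), Itga4, Itgal and Itgav, the integrin beta chains Itgb7, Itgb1 and Itgb2, the hyaluronan receptor Cd44, and Selplg, which encodes the selectin ligand PSGL-1. They were chosen by name as the integrins and homing receptors of islet T cells, and all 9 were among the 13561 genes of the deposited table. The cells came from mouse pancreatic islets and were sorted singly with an MHC class II tetramer, a reagent that marks T cells by the peptide their receptor binds. The labels name a HIP sort of 184 cells and an Ins sort of 257 cells, do not spell out either name, and give no strain, age, treatment or animal. The authors' annotation put the cells into a T follicular helper class (111 HIP and 61 Ins cells), a regulatory T cell (Treg) class (3 HIP and 115 Ins), cluster 2, annotated as activated CD4 T cells (61 HIP and 25 Ins), a dividing class (9 HIP and 35 Ins), and cluster 4, annotated as B cells (21 Ins). The first 4 classes together are called T cells, 184 HIP and 236 Ins.

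An integrin reaches the cell surface as a pair of 1 alpha and 1 beta chain. Itgae pairs with Itgb7 and binds E-cadherin on epithelial cells, and it is known from T cells that stay in tissues and from many Tregs. Itga4 pairs with Itgb7, which binds the mucosal addressin MAdCAM-1, or with Itgb1, which binds VCAM-1 on inflamed vessels and fibronectin. Itgal and Itgb2 form LFA-1, the integrin with which T cells hold on to ICAM-1. Itgav pairs with several beta chains and, with Itgb8, can activate latent TGF-beta. PSGL-1 captures rolling T cells on selectins once it carries the right sugars and sulfates, and Cd44 rises on T cells that have met antigen.

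The promoters of Itgb7, Itgb1 and Itga4 are shown because the 2 beta chains share Itga4 as a partner and lay in opposite directions between classes. Sequences are from RefSeq, build GRCm38.p6, 250 bases before to 50 after each gene's start, and RefSeq sequences were matched for 5 of the 9 genes, not for Itgae, Itgal, Itgb2 and Selplg. Capitals mark matches, on either strand, of 4 short motifs. For RUNX factors the letters searched were TGTGGT. For ETS factors they were AGGAAG. The SMAD motif was CAGAC. The forkhead motif was TGTTTAC. No 2 matches shown overlap.
Itgb7, chr15:102231886-102232185, minus strand: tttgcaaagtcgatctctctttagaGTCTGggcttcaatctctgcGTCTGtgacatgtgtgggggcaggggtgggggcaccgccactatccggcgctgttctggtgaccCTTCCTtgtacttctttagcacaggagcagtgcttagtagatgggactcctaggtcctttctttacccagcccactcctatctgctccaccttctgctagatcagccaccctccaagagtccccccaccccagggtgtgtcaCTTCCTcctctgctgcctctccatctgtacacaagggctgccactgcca
Itgb1, chr8:128685404-128685703, plus strand: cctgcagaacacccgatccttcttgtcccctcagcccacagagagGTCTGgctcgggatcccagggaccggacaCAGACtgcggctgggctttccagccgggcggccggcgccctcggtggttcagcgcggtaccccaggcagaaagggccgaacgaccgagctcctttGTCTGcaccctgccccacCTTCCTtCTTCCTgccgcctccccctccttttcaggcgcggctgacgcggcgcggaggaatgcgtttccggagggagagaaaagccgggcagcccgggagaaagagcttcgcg
Itga4, chr2:79255176-79255475, plus strand: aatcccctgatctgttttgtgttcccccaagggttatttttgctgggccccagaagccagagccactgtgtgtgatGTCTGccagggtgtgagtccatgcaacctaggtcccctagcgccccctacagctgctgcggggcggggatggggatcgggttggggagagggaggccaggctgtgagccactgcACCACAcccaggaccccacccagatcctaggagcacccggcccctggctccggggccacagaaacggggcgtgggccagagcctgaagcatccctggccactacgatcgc
Itgb7 held 2 ETS and 2 SMAD matches, Itgb1 2 ETS and 3 SMAD matches, and Itga4 1 RUNX and 1 SMAD match. Of all 32851 RefSeq promoters of this length, 35.4% held the ETS letters, 49.6% the SMAD letters, 16.8% the RUNX letters and 3.65% the forkhead letters, so such matches are common and describe the sequence only.

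Values are TPM, transcript abundance scaled to a fixed total per cell, which also is scaled to transcript length and allows levels of different genes to be compared. Detection means 1 TPM or more in a cell. Because no animal is named, each sort counts as 1 sample and no test between sorts or classes could be made. Shares carry an exact Clopper-Pearson 95% interval that covers counting error only. Where 0 cells were found, the share said to be allowed is instead 3 divided by the number of cells. For 0 of 56 cells this gives 5.36%, where the exact interval ends at 6.38%. Means carry the SD over cells, a measure of how cells vary and no replicate error. The authors' classes rest on these same expression values, so differences between classes are descriptions. Cells were numbered, and 5 blocks of 96 consecutive numbers (2 HIP and 3 Ins) served to describe spread within a sort. No block held both sorts, so block and sort cannot be told apart. Blocks of 2 groups are said to lie apart where their values do not overlap. The share of all genes with such blocks is not given here, so blocks that lie apart describe the named genes only. The median number of genes listed per cell was 1862 to 2477 in all groups of 20 or more cells except the Ins dividing class, at 3610, and detection in that class is read beside this gap. Cd3e was detected in 93.4% to 100% of the larger T cell groups. Of the 21 cells of cluster 4, 4.76% had Cd3e, 0% had Cd4 and 95.2% had Sdc1, a surface protein of antibody-secreting cells, so that cluster did not carry the transcripts of the T cells the sort was meant to hold.

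Itgae was found in most Tregs of the Ins sort and in few other cells. It was detected in 84 of 115 Ins Tregs (73.0%, interval 64.0% to 80.9%), with a mean of 659 ± 778 TPM, a median of 447.2 TPM and a highest value of 4467 TPM. The next group was the Ins dividing class, with 10 of 35 cells (28.6%, 14.6% to 46.3%) and a mean of 50.0 ± 129 TPM. In the Ins T follicular helper class and in HIP cluster 2 it was detected in 3 of 61 cells each (4.92%, 1.03% to 13.7%), in Ins cluster 2 in 1 of 25, and in HIP T follicular helper cells in 1 of 111 (0.901%, 0.0228% to 4.92%). The interval of the Ins Tregs overlapped that of no other group with at least 20 cells, and the 5 lowest groups all overlapped each other. Cluster 4, with nearly no T cell transcripts, had Itgae in 1 of 21 cells (4.76%), at 616 TPM. That cell also had Itgb7 and listed 4254 genes, the highest number in the cluster, where the median was 2477. In the 3 HIP Tregs, 1 cell had Itgae at 652 TPM and the other two were at 0, while Itgb1 was found in 0 and Selplg in 3 of these 3 cells. The 9 HIP dividing cells had Itgae in 1 cell, at 2.47 TPM, Itgb7 in 7, Itgb1 in 5 and Selplg in 8.

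**Figure D1:**
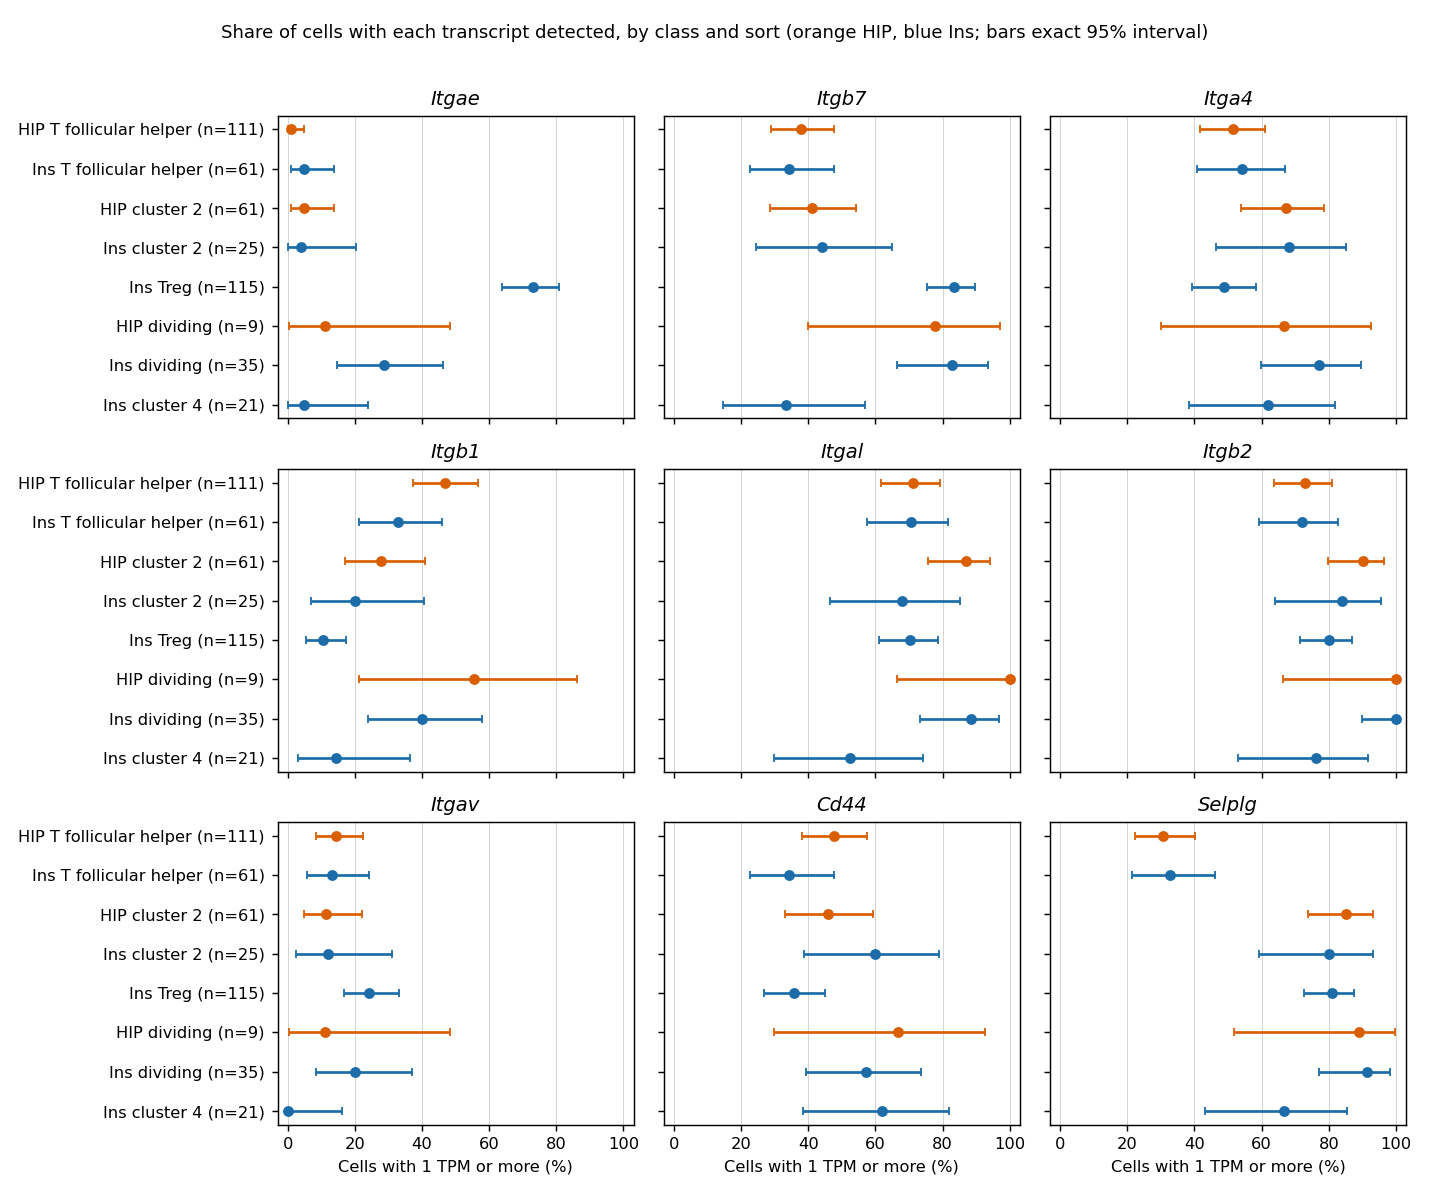
Share of cells (horizontal axis, percent) with at least 1 TPM of each of the 9 genes, for the 8 groups of 9 or more cells, with exact 95% intervals; orange is the HIP sort and blue the Ins sort. Itgae stands at 73.0% in Ins Tregs, and Selplg is lowest in the T follicular helper cells of both sorts, at 30.6% and 32.8%, and between 66.7% and 91.4% in the other groups.

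Over the 3 Ins blocks, 83.9%, 67.5% and 70.5% of Tregs had Itgae, and in T follicular helper cells of the same blocks 6.25%, 4.55% and 4.35%. In every block the Treg share lay far above the other. Tregs with and without detected Itgae had the same number of genes listed, 2015.5 and 2017 at the median. The annotated gene (chr11:73090583-73147446, plus strand, GENCODE annotation of mm10) contains the gene Haspin, named Gsg2 in the table, within its bounds on the opposite strand, with 0 shared exon bases. Use of strand in the authors' counting was not given in the sources used here. Among Ins Tregs without detected Gsg2, 68 of 97 (70.1%) had Itgae. Among all Ins Tregs it was 84 of 115 (73.0%), so the share was higher in those with detected Gsg2. The part of Gsg2 reads in the Itgae values was not tested.

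Within the Ins Tregs Itgae was found about as often with as without detected Foxp3, the transcription factor of the Treg lineage. Of Ins Tregs with detected Foxp3, 69 of 94 (73.4%, 63.3% to 82.0%) had Itgae, and of those without, 15 of 21 (71.4%, 47.8% to 88.7%). In the Ins dividing class Itgae was detected in 10 of 27 cells with Foxp3 (37.0%, 19.4% to 57.6%) and in 0 of 8 without, where 0 cells allow a share of up to 37.5%. In the Ins T follicular helper class it was 1 of 8 with Foxp3 and 2 of 53 without. Within Ins Tregs the share with Itgae was 82.7% (69.7% to 91.8%) in the 52 cells with Il10, a cytokine of effector Tregs, and 65.1% (52.0% to 76.7%) in the 63 without, with overlapping intervals. It was 73.5% with and 72.3% without Ikzf2 (Helios), 72.5% and 73.3% with and without Il2ra (CD25), and 71.8% and 75.0% with and without the chemokine receptor Cxcr3.

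Itgb7, the partner of Itgae, was detected in every group and was most frequent in Ins Tregs and Ins dividing cells. The share was 83.5% (75.4% to 89.7%) in Ins Tregs and 82.9% (66.4% to 93.4%) in Ins dividing cells. It was 44.0% in Ins cluster 2, 41.0% in HIP cluster 2, 37.8% in HIP and 34.4% in Ins T follicular helper cells, and 33.3% in cluster 4. The first 2 groups overlapped each other and none of the 5 others. The mean was 802 ± 699.5 TPM in Ins Tregs and 236 ± 435 TPM in Ins T follicular helper cells. Where the transcript was detected, the median level was 825 TPM in Ins Tregs, 654 TPM in Ins T follicular helper cells and 1195 TPM in HIP cluster 2. The Tregs thus stood above both other groups in the share of cells that held it. In the level within those cells they stood above the Ins T follicular helper cells and below HIP cluster 2. The gene lies at chr15:102215995-102231944 on the minus strand.

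**Figure D2:**
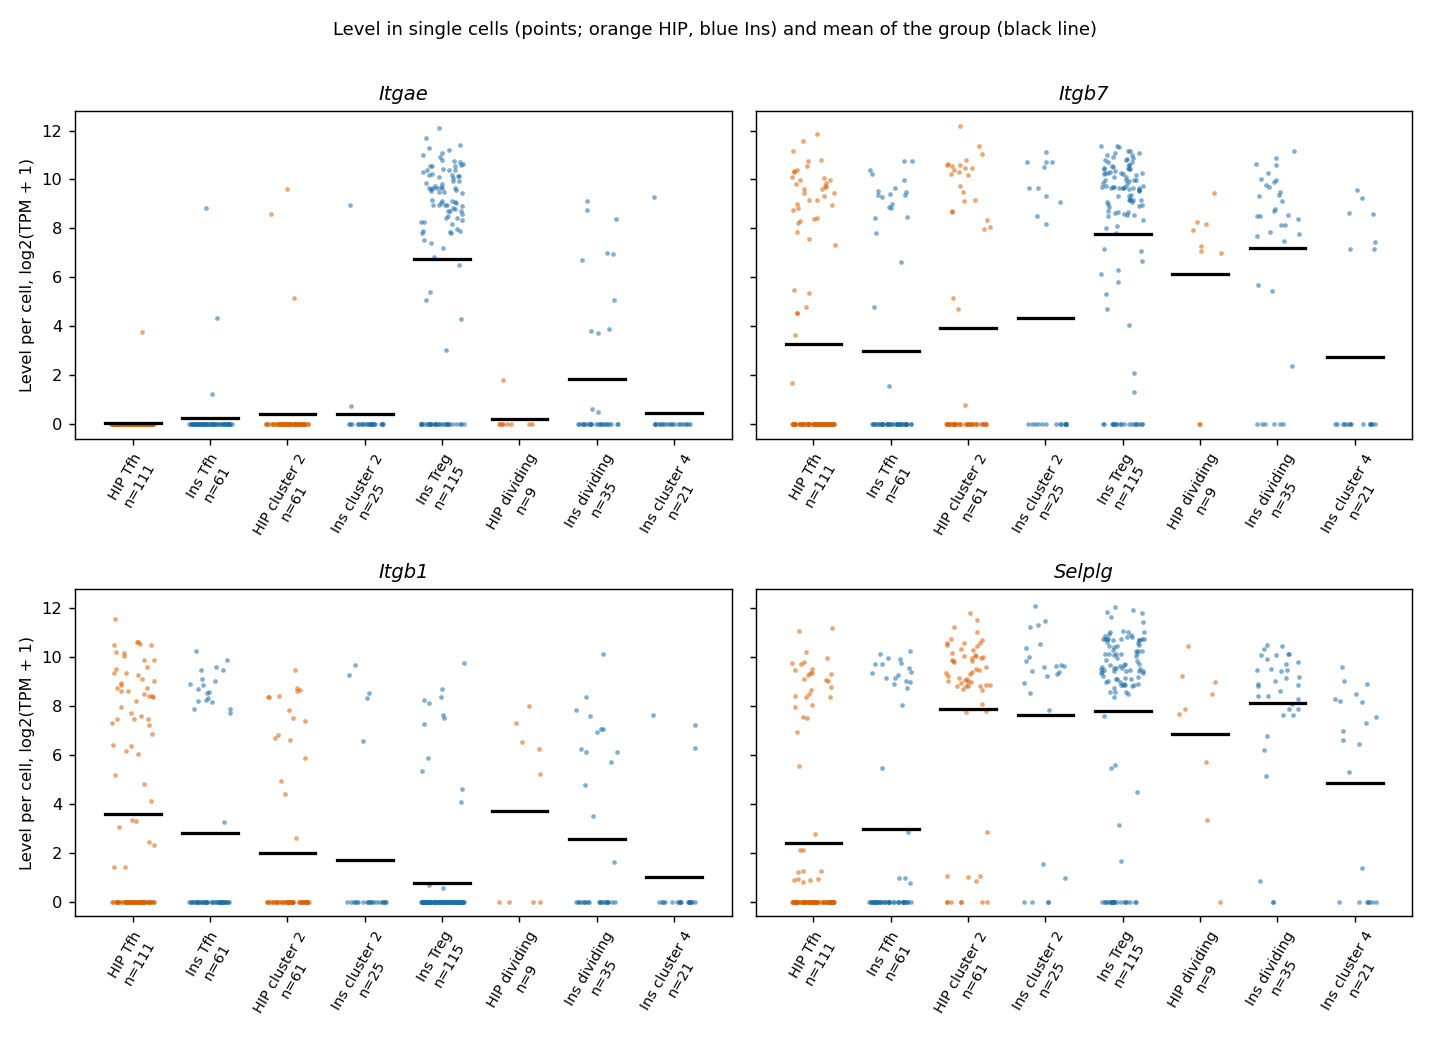
Level of Itgae, Itgb7, Itgb1 and Selplg in each cell (vertical axis, log2 of TPM + 1), by class and sort, with orange points for HIP, blue points for Ins and a black line at the group mean. Cells fall into a row at 0 and a cloud at high levels, and the mean of Itgae in Ins Tregs is 6.73 on this scale against 0.24 in Ins T follicular helper cells.

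Most Ins Tregs held the transcripts of both chains of CD103. Itgae and Itgb7 were detected together in 71 of 115 cells (61.7%, 52.2% to 70.6%), Itgae alone in 13, Itgb7 alone in 25 and neither in 6. Of the cells with Itgae, 84.5% (75.0% to 91.5%) had Itgb7, and of those without, 80.6% (62.5% to 92.5%), so within this class the detection of Itgb7 was about as frequent with Itgae as without. Over all 420 T cells the levels of the 2 chains correlated at r = 0.31, and within Ins Tregs at r = 0.05, where all points share the class and the library method. In the Ins dividing class 8 of 35 cells (22.9%) held both chains and 21 held Itgb7 alone. In HIP T cells both were found in 3 of 184 (1.63%, 0.338% to 4.69%), and 73 held Itgb7 alone.

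Itgb1, the other beta chain that Itga4 can use, was detected in a smaller share of Ins Tregs than of any other group with at least 20 cells. Among T follicular helper cells it was found in 46.8% (37.3% to 56.6%) of the HIP sort and 32.8% (21.3% to 46.0%) of the Ins sort. It was found in 40.0% (23.9% to 57.9%) of Ins dividing cells, in 27.9% of HIP cluster 2 and 20.0% of Ins cluster 2, in 14.3% of cluster 4, and in 12 of 115 Ins Tregs (10.4%, 5.51% to 17.5%). The Treg interval lay below those of both T follicular helper groups and of the dividing class, and overlapped those of cluster 4, of cluster 2 in the Ins sort and, narrowly, of cluster 2 in the HIP sort. Mean levels were 240.2 ± 475.97 TPM in HIP T follicular helper cells, 155 ± 275 TPM in Ins T follicular helper cells and 25.0 ± 105 TPM in Ins Tregs. Over blocks the share in HIP T follicular helper cells was 55.9% and 36.5%, in Ins T follicular helper cells 31.2%, 50.0% and 17.4%, and in Ins Tregs 6.82% to 12.9%. The 2 T follicular helper groups overlapped over blocks, and all blocks of Tregs lay below them.

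Itga4 was present at low level in every group. The share was 77.1% in Ins dividing cells, 68.0% in Ins and 67.2% in HIP cluster 2, 61.9% in cluster 4, 54.1% in Ins and 51.4% in HIP T follicular helper cells and 48.7% in Ins Tregs. Neighbours in this order overlapped, and only the dividing class and the Tregs, at the ends, did not. Among groups of 20 or more cells means ran from 15.4 ± 21.6 TPM in cluster 4 and 30.1 ± 31.7 TPM in Ins dividing cells to 74.0 ± 102 TPM in HIP cluster 2, far under those of Itgb7. The annotated gene (chr2:79255426-79333123) shares 1124 exon bases with Cerkl on the opposite strand, and Cerkl had a share of 2.17% in HIP T cells against 1.69% in the Ins sort.

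The beta chain found beside Itga4 was counted in each class. Of the 56 Ins Tregs with Itga4, 43 had Itgb7 alone (76.8%, 63.6% to 87.0%), 7 had both beta chains, 6 had neither and 0 had Itgb1 alone, where 0 cells allow a share of up to 5.36%. Of the 57 HIP T follicular helper cells with Itga4, 10 had Itgb7 alone (17.5%, 8.75% to 29.9%), 15 had Itgb1 alone (26.3%, 15.5% to 39.7%), 15 had both and 17 neither. In Ins T follicular helper cells the counts were 9, 6, 5 and 13 of 33. In Ins dividing cells with Itga4, 11 of 27 (40.7%) had both beta chains. Over all cells of a group, Itga4 with Itgb7 was found in 43.5% (34.3% to 53.0%) of Ins Tregs and 22.5% (15.1% to 31.4%) of HIP T follicular helper cells, and Itga4 with Itgb1 in 6.09% (2.48% to 12.1%) and 27.0% (19.0% to 36.3%). Without the cells numbered 289 to 384 the latter pair was in 4.00% of Ins Tregs. These 2 groups differ in sort as well as class, and their intervals did not overlap for either pair. Within the Ins sort the T follicular helper cells had Itga4 with Itgb7 in 23.0% (13.2% to 35.5%) and Itga4 with Itgb1 in 18.0% (9.36% to 30.0%), and both intervals overlapped those of the Tregs.

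**Figure D3:**
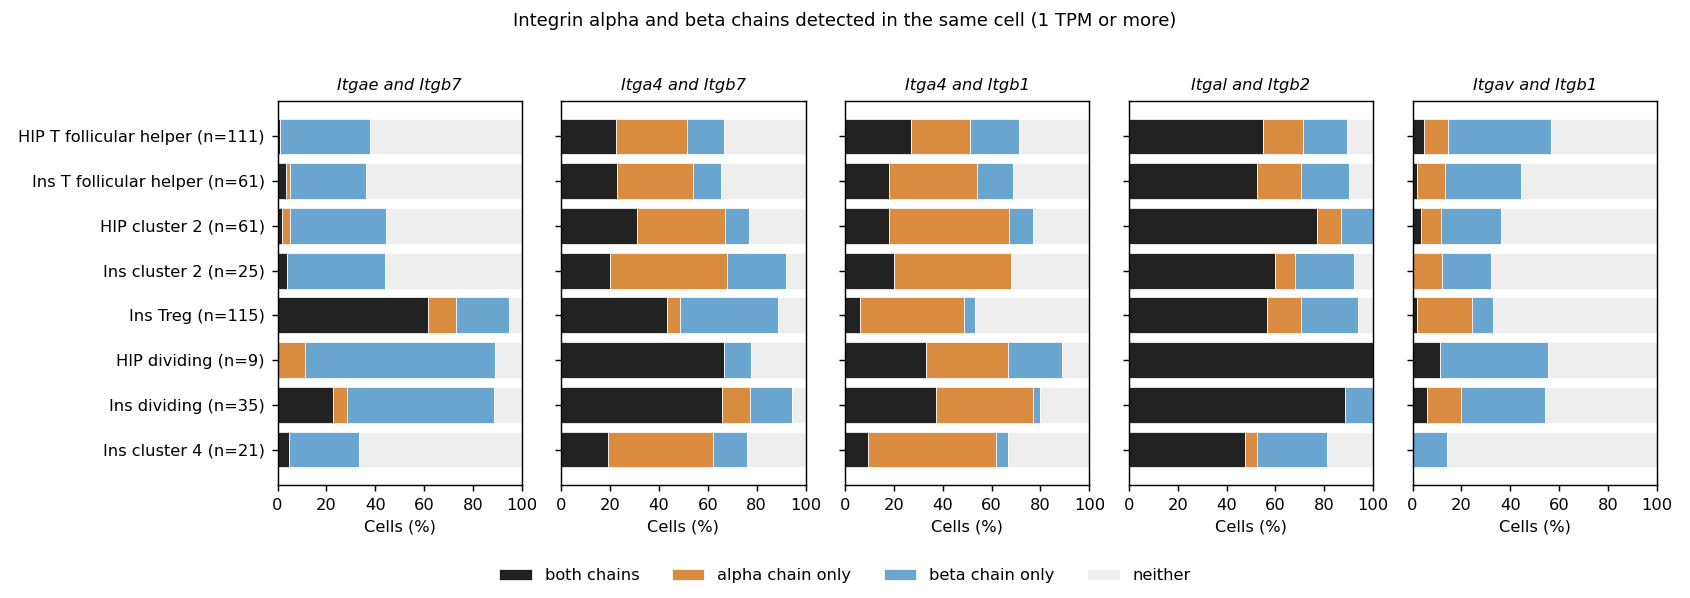
Share of cells (horizontal axis, percent) in which both chains, only the alpha chain, only the beta chain or neither chain of an integrin pair was detected, by class and sort. Both chains of Itgae and Itgb7 were found in 61.7% of Ins Tregs, and both chains of Itga4 and Itgb1 in 6.09% of them.

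Itgal and Itgb2, the chains of LFA-1, were the most widely detected integrins over all T cells of each sort. In Ins Tregs Itgb7 (83.5%) stood above Itgb2 (80.0%), and Itgae (73.0%) above Itgal (70.4%). Among groups of 20 or more cells Itgal ranged from 52.4% in cluster 4 and 68.0% in Ins cluster 2 to 88.6% in Ins dividing cells, and Itgb2 from 72.1% in Ins T follicular helper cells to 35 of 35 Ins dividing cells. The Itgb2 mean was 1067 ± 890.1 TPM for HIP cluster 2 and 1184 ± 1008 TPM for Ins cluster 2, against 602 ± 644 and 712 ± 837 TPM in HIP and Ins T follicular helper cells and 593 ± 586 TPM in Ins Tregs. Both chains were detected together in 77.0% (64.5% to 86.9%) of HIP cluster 2, 60.0% of Ins cluster 2, 56.5% of Ins Tregs, 55.0% of HIP and 52.5% of Ins T follicular helper cells and 88.6% of Ins dividing cells. These levels varied among the groups within a narrower range than those of Itgae.

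Itgav was rare in every group. It was detected in 24.3% (16.8% to 33.2%) of Ins Tregs, 20.0% of Ins dividing cells, 11.5% to 14.4% of the T follicular helper and cluster 2 groups and 0 of 21 cells of cluster 4, which allows a share of up to 14.3%. The T cell groups overlapped throughout, and the highest group mean was 20.9 ± 82.0 TPM, in Ins cluster 2. Of its beta chains, Itgb1 was found with it in at most 5.71% of the cells of any group of 20 or more. Itgb8 was detected in 10.4% of Ins Tregs and 8.90% of all Ins T cells, Itgb3 in 1.27% of Ins T cells, and Itgb5 was not among the genes analysed here. The annotated gene shares 634 exon bases with Gm13684 on the opposite strand.

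Selplg separated the T follicular helper class from the other T cells in both sorts. Of T follicular helper cells, 30.6% (22.2% to 40.1%) had it in the HIP sort and 32.8% (21.3% to 46.0%) in the Ins sort. It was found in 85.2% (73.8% to 93.0%) of HIP cluster 2, 80.0% (59.3% to 93.2%) of Ins cluster 2, 80.9% (72.5% to 87.6%) of Ins Tregs and 91.4% (76.9% to 98.2%) of Ins dividing cells. By these intervals both low groups lay apart from these 4, and the sorts overlapped within each class. Cluster 4 stood at 66.7% (43.0% to 85.4%), which overlapped the Ins T follicular helper cells. Mean levels were 164 ± 389.6 and 211 ± 354 TPM in HIP and Ins T follicular helper cells and 792 ± 729.8 TPM in HIP cluster 2. In each of the 5 blocks the T follicular helper share was 27.1% to 34.8%, and the cluster 2 share 71.4% to 90.0%.

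Cd44 was detected in 34.4% to 61.9% of the groups of 20 or more cells, and all of their intervals overlapped. The lowest shares were in Ins T follicular helper cells (34.4%) and Ins Tregs (35.7%), and the highest in cluster 4 (61.9%) and Ins cluster 2 (60.0%). Means ranged from 79.0 ± 105 TPM in Ins dividing cells to 206 ± 266 TPM in Ins cluster 2.

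**Figure D4:**
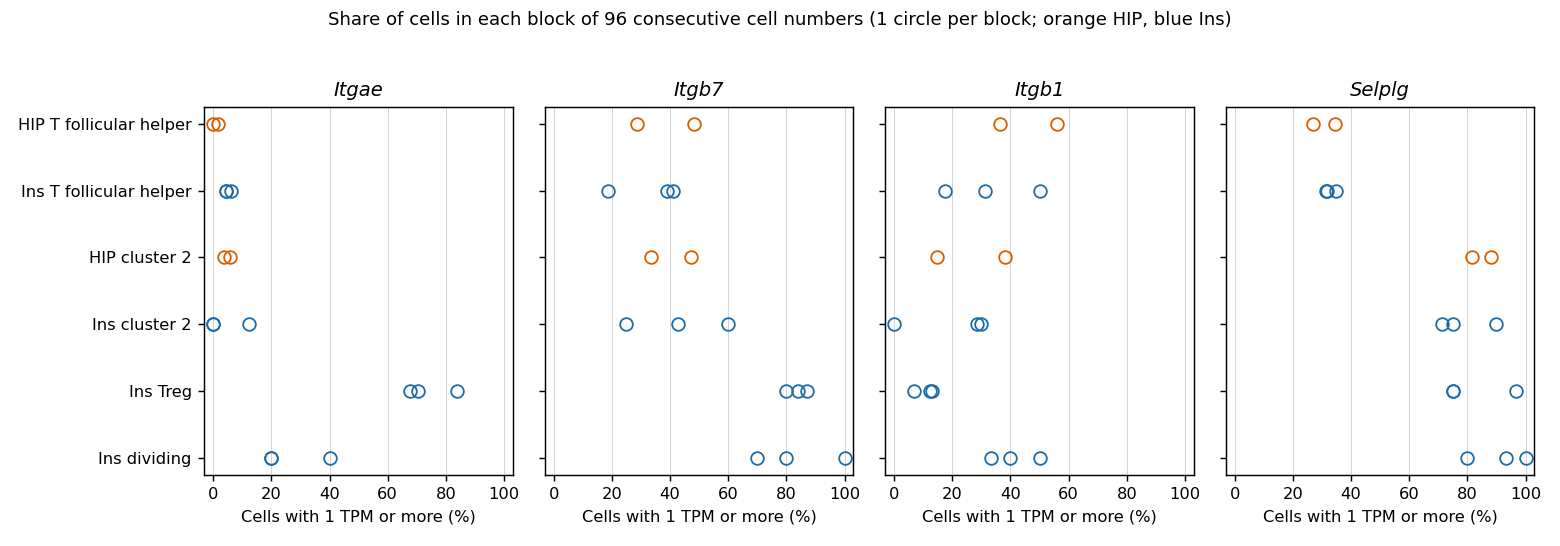
Share of cells with Itgae, Itgb7, Itgb1 and Selplg (horizontal axis, percent) in each block of consecutive cell numbers, with 1 circle per block, orange for HIP and blue for Ins. Itgae in Ins Tregs (67.5% to 83.9%) and Selplg in T follicular helper cells (27.1% to 34.8%) kept apart from the other groups shown, while Itgb1 varied widely between blocks of the same class.

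The 2 sorts were compared over all T cells and then within classes. Differences are of mean log2(TPM + 1) over genes found in 10% or more of the cells in either group, and 1 or more is counted as higher or lower. Where many cells are at 0, such a difference largely follows the share of cells detected. In HIP minus Ins over all T cells, 1 member was higher, Itgb1 (1.36), and 3 were lower, Itgae (-3.45), Itgb7 (-2.40) and Selplg (-2.02). Of the 6408 genes compared, 0.78% were higher and 4.32% lower by this measure. For Itgae the HIP mean was 10.1 ± 79.6 TPM and the Ins mean 333 ± 632 TPM. In the same order the means were 371 ± 712 and 587 ± 665 TPM for Itgb7, 398 ± 608 and 691 ± 812 for Selplg, and 170 ± 389 and 72.4 ± 195 for Itgb1. Each of these 4 genes lay apart between all HIP and all Ins blocks, and the share of all genes that did so is not given here. The sorts held different numbers of each class, with 3 HIP and 115 Ins Tregs, so this comparison mixes sort and class.

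Within classes the sorts differed less for these genes. In the T follicular helper class 8 of the 9 members passed the filter, and 1 was higher in HIP, Cd44 (1.16), where 2.08% of 5779 genes were higher and 3.79% lower. The Cd44 blocks overlapped (2.70 and 4.48 in HIP, 1.54 to 3.20 in Ins), and the difference was 2.11 without the HIP cells numbered 1 to 96, 0.33 without those numbered 193 to 288 and 0.69 without the Ins cells numbered 289 to 384. Itgb1 differed by 0.80, and by 1.43 and 1.67 without the latter 2 blocks. Itgb7 differed by 0.29 and Selplg by -0.56. The Selplg blocks lay narrowly apart, at 2.26 and 2.54 in HIP and 2.58 to 3.29 in Ins. In cluster 2, again with 8 members past the filter, Cd44 was lower in HIP (-1.38), where 8.42% of 6079 genes were higher and 6.74% lower. HIP blocks were at 3.38 and 3.63 and Ins blocks at 3.79 to 7.26, and without the 7 Ins cells of cluster 2 numbered 289 to 384 the difference was -0.45. Itgb7 differed by -0.40, and by -1.23 without the Ins cells numbered 97 to 192. Itgal differed by 0.75, and by 1.04 without the HIP cells numbered 1 to 96. Itgb1 differed by 0.29 and Selplg by 0.24. Cd44 thus lay in opposite directions in the 2 classes, and the difference between the classes was not tested. Itgae was under the filter in both.

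Treg minus T follicular helper within the Ins sort gave 3 members higher and 1 lower. Itgae differed by 6.49, Selplg by 4.83 and Itgb7 by 4.77, and Itgb1 by -2.03, where 9.01% of 6061 genes were higher and 4.34% lower. All 4 lay apart over the blocks, and the share of all genes that did so is not given here. The Itgb1 difference was -1.31 without the cells numbered 289 to 384. Without the cells numbered 385 to 480, Cd44 (1.15) and Itgb2 (1.09) were higher too. Mean TPM was 84.2 times higher for Itgae, 4.37 times for Selplg and 3.40 times for Itgb7, and that of Itgb1 was 0.162 times as high. Treg minus cluster 2 within the Ins sort gave Itgae (6.34) and Itgb7 (3.43) higher, and Cd44 (-2.30), Itgb2 (-1.50) and Itga4 (-1.42) lower, where 9.93% of 6165 genes were higher and 6.62% lower. Itgae, Itgb7 and Cd44 lay apart over the blocks, again without a share of all genes beside them, and Itgb2 and Itga4 overlapped. Without the cells numbered 289 to 384 the Itgb2 difference was -0.83 and that of Cd44 -1.45, and without those numbered 385 to 480 that of Itga4 was -0.86, while Selplg (1.17) and Itgav (1.14) passed 1. Without those numbered 97 to 192 Itgb1 was also lower (-1.71). Over all cells Selplg differed by 0.16, where it had differed by 4.83 against T follicular helper cells.

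Dividing minus Treg within the Ins sort set Itgae against the general direction. Itgae differed by -4.89, the lowest value of all 8150 genes compared, of which 42.3% were higher and 0.896% lower. Itgb2 (1.93), Itgb1 (1.79), Itga4 (1.40) and Cd44 (1.19) were higher, a share of the members near that of all genes, and the median gene was 0.80 higher. Dividing cells listed 3610 genes at the median and Tregs 2017, and the part of this gap in the higher values was not tested. Foxp3 was detected in 77.1% of the dividing cells and 81.7% of the Tregs. Without the cells numbered 385 to 480 the Cd44 difference was 0.64 and Itgb7 was also lower (-1.72). Among cells with 1500 to 3000 genes listed Cd44 differed by 3.14, and with a pseudocount of 10 TPM by 0.51. The median of the dividing class lies above that range, so the value of 3.14 rests on a minority of the dividing cells. Without those numbered 97 to 192 Itgav was also lower (-1.10) and Selplg higher (1.11).

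Cluster 2 minus T follicular helper within the HIP sort gave Selplg (5.48), Itgb2 (2.17) and Itga4 (1.38) higher and Itgb1 (-1.59) lower, where 8.57% of 5835 genes were higher and 2.78% lower. Blocks lay apart for all 4, with only 2 blocks in each class, and the share of all genes that did so is not given here. With a pseudocount of 10 TPM the Itga4 difference was 0.79. Without the cells numbered 1 to 96 the Itgb1 difference was -0.23, so this value rests on that block, and Cd44 was lower (-1.10) without it. Without those numbered 193 to 288 the Itgb1 difference was -3.04. The comparison shares its T follicular helper cells with the HIP minus Ins comparison of that class.

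**Figure D5:**
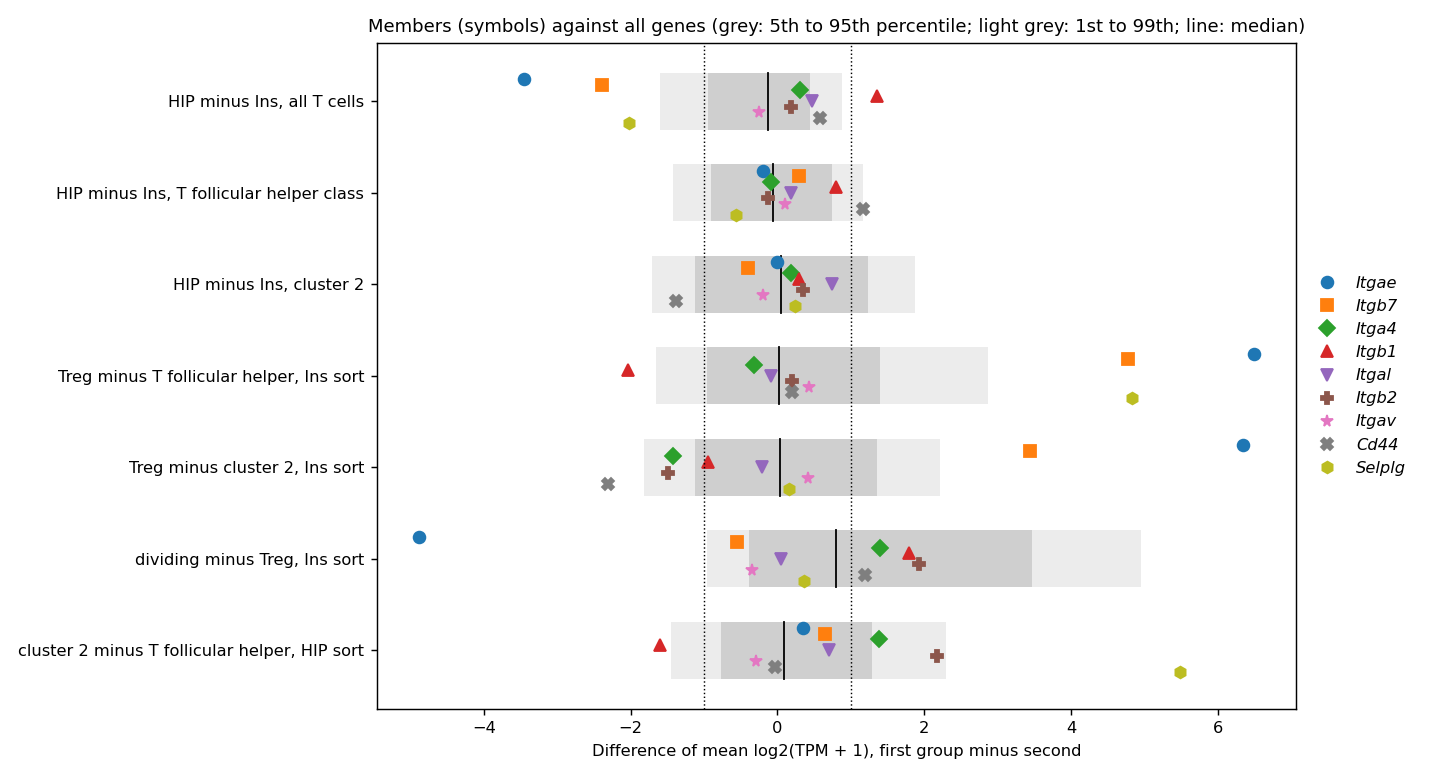
Difference of mean log2(TPM + 1) for the 9 genes (symbols) in each of 7 comparisons, over grey bars for the 5th to 95th percentile and light grey bars for the 1st to 99th percentile of all genes compared; dotted lines mark -1 and 1. Itgae lies at 6.49 and 6.34 in the Treg comparisons and at -4.89 in dividing minus Treg, and Selplg at 4.83 and 5.48 against T follicular helper cells.

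Other genes of the same pathways were read from lists. Of 19 further integrin chains, 10 were among the genes analysed and 0 were detected in 10% of all T cells. Together those 10 summed to a mean of 18.3 TPM per HIP T cell and 30.4 TPM per Ins T cell, less than Itgal alone. Of 14 genes that put sugars and sulfates on PSGL-1, 3 passed the filter in Treg minus T follicular helper, with 2 higher and 1 lower, where 9.01% of all genes compared were higher and 4.34% lower. Tpst2, which sulfates the PSGL-1 tyrosines, was detected in 57.4% and 19.7% (3.65), Gcnt1, which builds the core 2 branch, in 23.5% and 3.28% (1.38), and B4galt1, a galactosyltransferase, in 46.1% and 59.0% (-1.01). In cluster 2 minus T follicular helper of the HIP sort Tpst2 (3.33) and Gcnt1 (1.07) were also higher, 2 of the 4 that passed, where 8.57% of all genes were higher. Fut7, the fucosyltransferase needed for selectin binding, was detected in 3.48% of Ins Tregs and in 0 of 61 Ins and 0 of 111 HIP T follicular helper cells, which allows shares of up to 4.92% and 2.70%.

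Of 30 genes that switch integrins on or link them to the cytoskeleton, 25 passed in Treg minus T follicular helper, with 8 higher and 2 lower, beside the same 9.01% and 4.34% of all genes, and a median of 0.48 against 0.01 over all genes. The largest were Zyx (2.29), a focal adhesion protein, Rap1b (2.23), the small GTPase that activates LFA-1, and Cytip (2.20), which binds the LFA-1 regulator cytohesin. Of 15 genes of the TGF-beta pathway, which is known to induce Itgae, 9 passed, with Skil, a SMAD repressor, higher (1.68) and Tgfbr3, a TGF-beta co-receptor, lower (-1.32). Tgfbr3 was detected in 0 of 115 Tregs, which allows a share of up to 2.61%, and in 21.3% of T follicular helper cells. Runx3, a transcription factor known to drive Itgae in CD8 T cells, was detected in 11.3% of Ins Tregs, with 2017 genes listed at the median, and in 45.7% of Ins dividing cells, with 3610. Of 25 other adhesion genes, 17 passed in Treg minus T follicular helper, with 4 higher and 5 lower, again beside 9.01% and 4.34% of all genes, among them Cd6 (2.95), Cd2 (2.78), the receptor of CD48, and Slamf6 (-2.70). Pecam1, an adhesion molecule of endothelium also found on T cells, was likewise found in 0 of 115 Ins Tregs and in 21.3% of Ins T follicular helper cells.

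The genes most like each member over the 420 T cells were found by Pearson's r of log2(TPM + 1) among 5932 genes in at least 10% of those cells. Points share the classes and the library method. For Itgae they were Foxp3 (0.59), Arl5a (0.55), Ly6a (0.47) and Ccr2 (0.44). Itgb7 was most like Arl5a (0.32) and Selplg most like the interferon gamma receptor chain Ifngr1 (0.38). For Itgb1 (Tcf7, 0.27), Itgb2 (Ywhaz, 0.26), Itga4 (Ms4a4b, 0.24), Itgal (Actb, 0.23), Itgav (Mgl2, 0.22) and Cd44 (Baz1a, 0.21) the closest gene correlated weakly. Among the members, the level of Selplg correlated most with the log2 number of genes listed (0.26). Itgb2 (0.23) and Itgb7 (0.18) followed, and the level of Itgae did not correlate with it (0.05).

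Of the 9 genes, the median cell held 5 in Ins Tregs and HIP cluster 2, 4 in HIP T follicular helper cells and Ins cluster 2, 3 in Ins T follicular helper cells and 6 in Ins dividing cells. Transcripts of other cell types were also read in the T cells. The 6 B cell markers analysed summed to 101 ± 1037 TPM per HIP and 87.9 ± 795 TPM per Ins T cell. They summed to 304 ± 1542 TPM in Ins T follicular helper cells and 18.3 ± 128 TPM in Ins Tregs. The median was 0 in each of these groups, and the highest Ins T follicular helper cell held 8760 TPM. A minority of cells thus carried these means. The 8 epithelial, acinar or islet markers analysed summed to 614 ± 1902 TPM per Ins Treg and 118 ± 419 TPM per Ins T follicular helper cell. The median was 0 in both groups. Ins2, the insulin gene, was detected in 13.0% of these Tregs and 4.92% of these T follicular helper cells. The share of T cells was 1.63% (HIP) and 3.39% (Ins) for Cd8a, and 33.7% and 22.0% for Cd8b1. Together these 2 genes summed to 24.9 ± 129 TPM per HIP and 21.8 ± 120 TPM per Ins T cell. The median was 0 in both sorts, and the highest cells held 1208 and 976 TPM. The part of these transcripts in the differences above was not tested.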

How the data were processed

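Single CD4 T cells were profiled with full-length SMART-Seq2 libraries, per the labels. The submitters' processing notes name TopHat, Bowtie, RSEM 1.2.8 and mm10, with no role given. Filters before deposit and the clustering method were not given in the sources used here. Per the values, the authors' table holds natural log values, in which the exponential minus 1 sums to 100000 in each of 441 cells, so it was read as ln(TPM/10 + 1) and turned back into TPM as the authors' values imply. The authors' deposited annotation gave the class, sort and number of genes (a count of genes listed per cell), which equalled the labels in 441 of 441 cells. TPM keeps no depth, and the number of genes listed is its only stand-in. Zeros can reflect failed capture, as 29 cells had Gapdh at 0. Detection was at 1 TPM and the pseudocount was 1 TPM. The 9 genes, the gene lists and the comparisons were chosen with earlier results of these data known. Named genes were the 9 members, their most correlated genes (4 for Itgae, 1 for each other member), at most 3 genes of each list with the largest difference, and the partners of Itgav; genes named for co-detection with Itgae, overlap on the genome or background were chosen beside this rule, and Fut7, Runx3 and Pecam1 after their values were seen. Alternatives were other thresholds and pseudocounts, no filter, cells with 1500 to 3000 genes, cells with Gapdh, TPM without Rn45s, equal block weights and leaving out each block. No doublet caller was run on these singly sorted cells, and the script for differences of mean log2(TPM + 1) was tested on simulated data. Python 3.11.15, numpy 2.4.6, pandas 2.3.3, scipy 1.17.1 and matplotlib 3.10.9 were used.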

Additional observations from a re-analysis of the deposited data

How the results depend on the processing

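No paired analysis was possible because each sort is 1 sample and replicate numbers only name cells. Of 24 member differences of 1 or more, 14 stayed past 1 in the same direction under every alternative run, and 0 changed sign. A pseudocount of 10 TPM left 0 members higher in HIP minus Ins over all T cells and in the T follicular helper class, 0 lower in cluster 2, and 1 higher in dividing minus Treg. It also took Itga4 under 1 in Treg minus cluster 2 (-0.77) and in cluster 2 minus T follicular helper of the HIP sort (0.79). Without cells with Gapdh at 0, 2 members were lower in HIP in cluster 2. With detection at 10 TPM, Itga4 with Itgb7 was found in 28.7% of Ins Tregs. At 100 TPM this pair was at 7.83%, Itgal with Itgb2 at 36.5%, Itga4 with Itgb1 at 1.74% of Ins Tregs and 6.31% of HIP T follicular helper cells, and Itgb1 at 34.2% of the latter. Leaving out each block gave Itgb1 in 36.5% to 55.9% of HIP T follicular helper cells and Itgal with Itgb2 in 51.2% to 66.2% of Ins Tregs. It gave 0 to 1 members higher and 0 to 2 lower in HIP minus Ins of cluster 2, 3 to 5 higher in Treg minus T follicular helper, 2 to 4 higher in Treg minus cluster 2, and 1 to 2 lower in dividing minus Treg. The cause of these shifts was not tested. Itgae stayed between 69.0% and 76.0% of Ins Tregs over the blocks left out. Without animals named, no value here has replicate error.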
